A study of Macaca mulatta with 36 samples.

Results

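BST2, IFITM1 and APOBEC3H encode proteins that act against retroviruses at different steps of their life cycle, and their transcripts were measured in the hippocampus of rhesus macaques with and without simian immunodeficiency virus encephalitis (SIVE). The members are all probe sets, the groups of short probes by which an Affymetrix array reads a transcript, whose only gene symbol in the platform's table of names is BST2, IFITM1 or APOBEC3H. This rule gave 5 of the 52865 probe sets on the array: 2 for BST2, 2 for IFITM1 and 1 for APOBEC3H, so 3 of the 14132 named genes. BST2 was read by MmugDNA.41833.1.S1_at and a dimmer probe set, IFITM1 by MmugDNA.5697.1.S1_s_at and MmugDNA.19587.1.S1_at, and APOBEC3H by MmunewRS.633.1.S1_s_at. For BST2 and IFITM1 the first of each pair had the higher mean signal over all arrays and stands for the gene unless the dimmer probe set is named. The suffix _s_at marks probe sets whose probes match more than 1 transcript. IFITM genes and APOBEC3 genes are families of close copies, so part of the signal of the brighter IFITM1 probe set and of the APOBEC3H probe set may come from relatives of the gene.

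The arrays hold total RNA of male Macaca mulatta, from 9 animals with SIVE and 9 without infection, read on 36 arrays with 2 per animal. Per the labels, 4 SIVE animals, all aged 6 years, and 2 controls, aged 3 to 4 years, had received anti-CD8, an antibody that depletes T cells bearing CD8. The other 5 SIVE animals, aged 2 to 5 years, and 7 controls, aged 3 to 8 years, had not. The sources used here give neither the virus strain, its dose and the time since infection nor whether the 2 arrays of an animal hold the same RNA or different pieces of tissue. No infected animal without encephalitis is among these samples, so infection and encephalitis cannot be told apart.

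Cells that sense a virus release interferon, which switches on a large set of antiviral genes in the cells around them. Restriction factors are those of its products, and some constitutively made proteins, that block a step of the retroviral cycle directly. IFITM1 sits in the cell membrane and hinders the fusion of virus and cell. APOBEC3H is a cytidine deaminase that is packaged into virions and damages the viral DNA made in the next cell by turning cytosines into uracils, unless the viral protein Vif removes it. BST2, also called tetherin, anchors budding virions to the surface of the cell that made them, and simian immunodeficiency viruses counter it with Nef or Vpu.

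Values are log2 signals, so a difference of 1 is a doubling, and the 2 arrays of an animal were averaged before any comparison. The duplicate arrays correlated across probe sets at 0.992 to 0.997 in 17 animals and at 0.976 in Control 9. The signal near the 3′ end of 3 control transcripts exceeded that near their 5′ end by 0.948 to 1.46 in SIVE 2, SIVE 3 and Control 8 and by 0.105 to 0.465 in the other 15 animals. Such an excess is seen when RNA is degraded or its labelled copies end early. Results are therefore also given without those 3 animals, all of which carry the anti-CD8 label. The hippocampal neuron markers ZBTB20, C1QL2 and PROX1 had mean signals of 8.44 to 10.55 in SIVE and 8.62 to 10.40 in controls, above the median probe set level of 5.65.

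The first comparison asked whether the transcripts of the 3 genes differ between animals with SIVE and uninfected controls. All 5 probe sets were higher in SIVE. The probe sets of BST2 and IFITM1 rose by 7.73-fold to 10.5-fold and that of APOBEC3H by 1.65-fold. In limma 3.63% of all probe sets tested were higher in SIVE at an adjusted p under 0.05 and 1.30% were lower. The share of all probe sets whose SIVE and control animals do not overlap was not counted.

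IFITM1, the entry inhibitor, had a signal between 10.90 and 12.19 in the 9 SIVE animals, with a median of 11.66, and between 7.70 and 9.32 in the 9 controls, with a median of 8.39. Every SIVE animal lay above every control, by a gap of 1.58 between the lowest SIVE animal (SIVE 8) and the highest control (Control 8). The means were 11.55 ± 0.45 (SD, n = 9) and 8.44 ± 0.44 (SD, n = 9). The difference of 3.12 ± 0.19 (SE) is an 8.66-fold rise with a 95% interval of 6.53 to 11.5 (limma adjusted p = 1.52e-09). It was the rise of rank 58 among the 52707 probe sets tested. SIVE 7 carried the highest signal and Control 7 the lowest.

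The dimmer IFITM1 probe set, whose suffix does not mark it as matching several transcripts, ran from 9.79 to 11.32 in SIVE with a median of 10.65. In controls it ran from 6.71 to 8.19 with a median of 7.70. The groups were again apart, and SIVE 7, SIVE 8, Control 8 and Control 7 held the same extreme places. The difference was 3.00 ± 0.21 (SE), or 7.99-fold (limma adjusted p = 8.42e-09). Across animals the signals of the IFITM1 probe sets correlated at r = 0.980 over the 9 SIVE animals and 0.886 over the 9 controls, given as a description since they share arrays and target.

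APOBEC3H, the virion-packaged deaminase, had a signal of 6.43 to 7.24 in SIVE with a median of 6.86, and of 6.05 to 6.29 in controls with a median of 6.11. The animals did not overlap, but the gap between SIVE 9, the lowest SIVE animal, and Control 8, the highest control, was 0.148. Single arrays of the groups did overlap, with the lowest SIVE array minus the highest control array at -0.0174, and the SD between the 2 arrays of an animal was 0.116, so this separation is close to the spread between duplicate arrays. The means were 6.87 ± 0.25 (SD, n = 9) in SIVE and 6.15 ± 0.09 (SD, n = 9) in controls, a rise of 0.72 ± 0.09 (SE) or 1.65-fold with a 95% interval of 1.45 to 1.87 (limma adjusted p = 1.9e-05). It ranked 839 among all rises. SIVE 3 was highest for APOBEC3H, whereas the other 4 member probe sets peaked in SIVE 7.

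BST2, which tethers virions as they leave, ran from 10.71 to 11.89 in SIVE with a median of 11.35, and from 8.05 to 9.00 in controls with a median of 8.16. The gap between SIVE 1 and Control 8 was 1.71. The other controls lay close together, with a highest value of 8.34, and Control 8 stood above them. The means were 11.23 ± 0.40 (SD, n = 9) in SIVE and 8.28 ± 0.29 (SD, n = 9) in controls. The rise of 2.95 ± 0.16 (SE) corresponds to 7.73-fold with a 95% interval of 6.17 to 9.68 (limma adjusted p = 1.04e-10) and ranked 69.

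The dimmer BST2 probe set had a signal of 10.31 to 11.60 in SIVE, median 10.70, and of 6.96 to 7.89 in controls, median 7.51. The gap of 2.42 was the widest among the 5 member probe sets. The difference was 3.39 ± 0.16 (SE), or 10.5-fold with a 95% interval of 8.34 to 13.2 (limma adjusted p = 1.84e-11). Between the BST2 probe sets r was 0.879 over SIVE animals and 0.648 over controls, again a description. Averaging the probe sets of a gene gave a rise of 3.17 for BST2 and 3.06 for IFITM1.

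**Figure D1:**
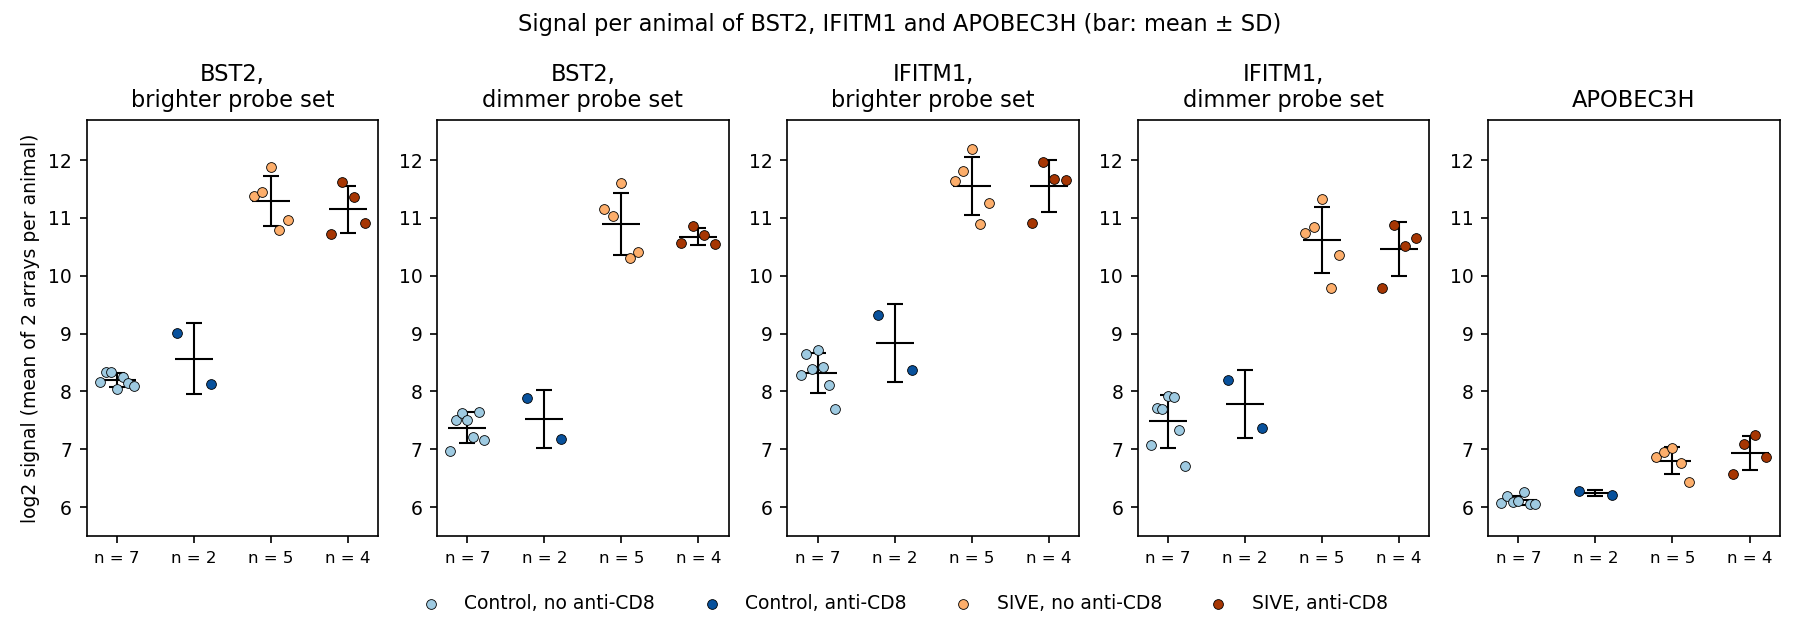
Log2 signal (vertical axis, mean of 2 arrays) of the 5 member probe sets, 1 panel each, with 1 point per animal in the 4 combinations of group and anti-CD8 label. Bars show the mean ± SD. In each panel all SIVE animals (orange and brown) lie above all controls (blue), with the narrowest gap, 0.148, for APOBEC3H and a single treated control, Control 8 at 9.00, above the other controls for BST2.

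Leaving out SIVE 2, SIVE 3 and Control 8 left differences of 2.97 for BST2, 3.15 for IFITM1 and 0.65 for APOBEC3H, each past the threshold. Without Control 8 alone they were 3.04, 3.22 and 0.74. With the anti-CD8 label as a covariate they were 2.93, 3.07 and 0.69. In bulk tissue a change in the number of cells that carry a transcript and a change in its amount per cell cannot be told apart.

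The size of the rise was compared between the genes within each animal, by the difference of their log2 signals. BST2 minus APOBEC3H was 4.36 ± 0.29 (SD, n = 9) in SIVE and 2.13 ± 0.24 (SD, n = 9) in controls, so the BST2 probe set rose by 2.23 more. IFITM1 minus APOBEC3H changed by 2.39. For both, the exact permutation p over 48620 splits of the animals was 4.11e-05, the smallest it can give, and 6.17e-05 adjusted over the 3 pairs (two-sided). BST2 minus IFITM1 was -0.33 ± 0.18 in SIVE and -0.16 ± 0.29 in controls. That difference of -0.17 was within the spread between animals (exact permutation p = 0.169). Its sign depends on the probe sets used, as the dimmer ones rose by 3.39 for BST2 and 3.00 for IFITM1. The APOBEC3H probe set has the lowest signal of the members, at 6.15 in controls against 8.28 for the brighter BST2 probe set, so its rise can be understated.

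The anti-CD8 label gave the next question: whether the SIVE difference was present with and without this treatment. Without it, in 5 SIVE animals and 7 controls, all 5 probe sets were called higher, where 2.34% of all probe sets were. IFITM1 was at 11.56 ± 0.50 (SD, n = 5) against 8.32 ± 0.34 (SD, n = 7), a difference of 3.23 ± 0.24 (SE; limma adjusted p = 1.18e-07). APOBEC3H was at 6.80 ± 0.23 against 6.12 ± 0.08, a difference of 0.69 ± 0.11 (SE; limma adjusted p = 0.000974). BST2 was at 11.29 ± 0.43 against 8.20 ± 0.12, a difference of 3.10 ± 0.19 (SE; limma adjusted p = 1.06e-08). The dimmer probe sets differed by 3.53 for BST2 and 3.13 for IFITM1.

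With anti-CD8, in 4 SIVE animals and 2 controls, the 5 probe sets were also called higher, where 0.844% of all probe sets were. However, these calls lean on the spread estimated from all 18 animals. These SIVE animals were aged 6 years and these controls 3 to 4, so SIVE and age cannot be told apart here. The 4 treated SIVE animals had IFITM1 signals of 10.92, 11.96, 11.67 and 11.66, and the 2 treated controls 9.32 and 8.36. The difference was 2.71 ± 0.35 (SE; limma adjusted p = 0.000355). For BST2 they had 10.71, 11.61, 11.35 and 10.90 against 9.00 and 8.13, a difference of 2.58 ± 0.28 (SE; limma adjusted p = 5.5e-05). The treated animals of the groups did not overlap for either gene, which says little with 4 and 2 animals. The dimmer probe sets differed by 3.14 for BST2 and 2.68 for IFITM1. When the 6 treated animals were fitted alone, the differences of 2.71 and 2.58 no longer passed (limma adjusted p = 0.084 for IFITM1 and 0.0793 for BST2), whereas the dimmer BST2 probe set still did (limma adjusted p = 0.0101).

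APOBEC3H in treated animals was at 6.57, 7.09, 7.24 and 6.86 in SIVE and at 6.29 and 6.20 in controls. The difference of 0.70 ± 0.16 (SE) passed only just (limma adjusted p = 0.044). It was lost when 1 animal was left out, with the exceptions of SIVE 1, SIVE 7, SIVE 9 and Control 5, and the adjusted p then ranged from 0.00675 to 0.112 over all 18 omissions. Without SIVE 2, SIVE 3 and Control 8 the difference was 0.52, with Control 9 as the only treated control left.

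Whether the SIVE difference itself changed with the label was tested as an interaction, which had 0 probe sets past the threshold in limma over the whole array (0%), against 1481 at an unadjusted p under 0.05. The estimate was -0.52 for IFITM1 with a 95% interval of -1.42 to 0.38. For BST2 it was -0.52 with an interval of -1.23 to 0.19, and for APOBEC3H 0.01 with an interval of -0.40 to 0.42. With 2 treated controls, a SIVE difference smaller by more than 1 log2 unit under anti-CD8 lies inside the intervals of BST2 and IFITM1. The interaction estimate moved to -0.0852 for BST2 and -0.0444 for IFITM1 without Control 8, the animal with the largest 3′ excess. It moved to -0.955 for BST2 and -0.996 for IFITM1 without Control 9 instead. Either omission leaves a single treated control, so both estimates depend on which treated control is kept. Age differed along with the label among SIVE animals, so its part in the interaction cannot be told apart.

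Within SIVE animals, anti-CD8 against none gave -0.01 for IFITM1 (95% interval -0.58 to 0.57, limma adjusted p = 0.994). It gave 0.14 for APOBEC3H (-0.12 to 0.40, limma adjusted p = 0.599) and -0.15 for BST2 (-0.60 to 0.31, limma adjusted p = 0.769). Of all probe sets 0.00190%, a single one, was called in this comparison by limma, and 8079 had an unadjusted p under 0.05. None of the 5 member probe sets passed. The 4 treated SIVE animals were aged 6 years and the 5 others 2 to 5. Treatment and age therefore cannot be told apart in this comparison.

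Within controls the treated animals stood at 0.51 above the others for IFITM1 (95% interval -0.17 to 1.20, limma adjusted p = 0.403), 0.13 for APOBEC3H (-0.19 to 0.44, limma adjusted p = 0.645) and 0.37 for BST2 (-0.17 to 0.92, limma adjusted p = 0.437). Without Control 8, which had the largest 3′ excess of all animals at 1.46, they were 0.04 for IFITM1, 0.09 for APOBEC3H and -0.06 for BST2. Without Control 9 instead, they were 0.99 for IFITM1, 0.17 for APOBEC3H and 0.81 for BST2. Either omission leaves a single treated control, so the values of IFITM1 and BST2 rest on which of them is kept. With all controls, 0 probe sets passed in limma over the whole array (0%), against 8266 at an unadjusted p under 0.05.

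**Figure D2:**
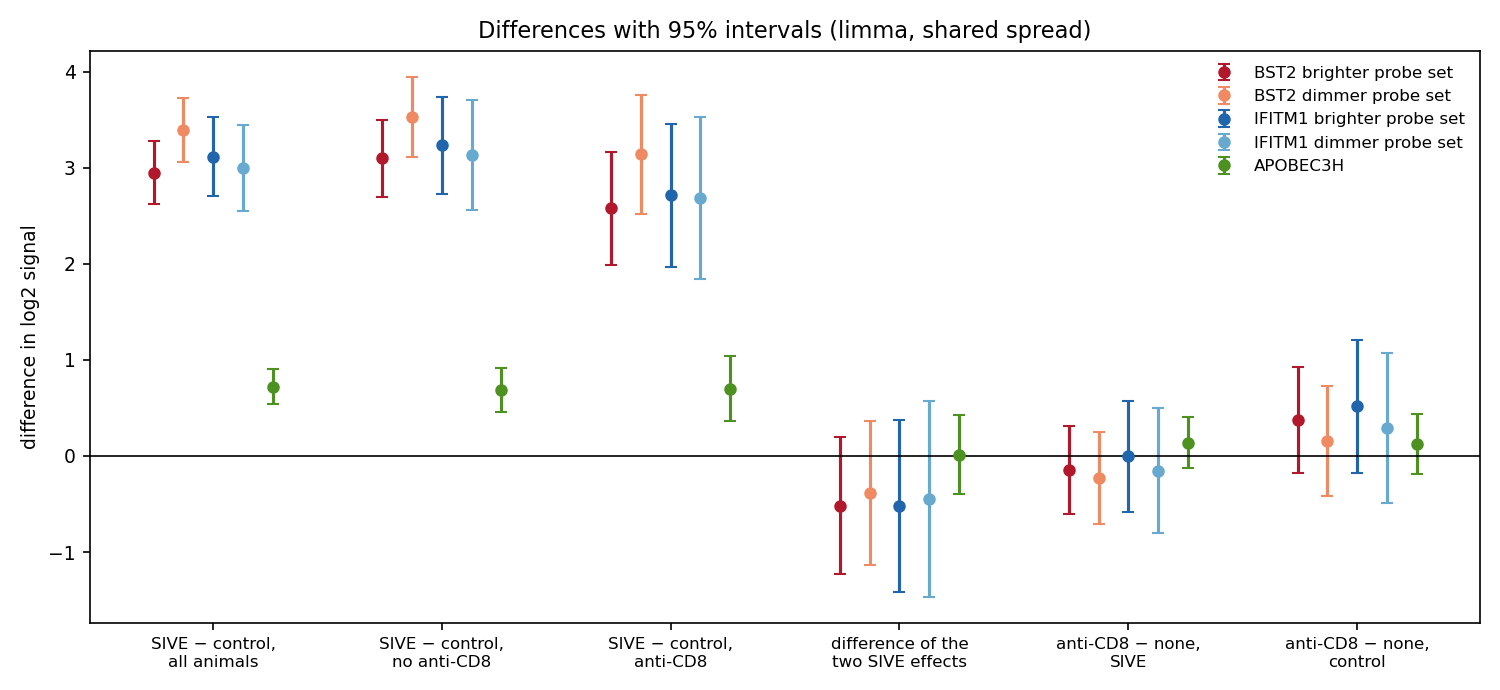
Differences in log2 signal (vertical axis) of the 5 member probe sets in the 6 comparisons (horizontal axis), with 95% intervals from limma. The SIVE differences of BST2 and IFITM1 lie between 2.58 and 3.53 and those of APOBEC3H between 0.69 and 0.72, while every interval of the interaction and of anti-CD8 against none includes 0.

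By mean signal, each of the 3 genes had the same split of the 4 conditions into the controls below and the SIVE animals above. For BST2 the order was untreated controls (8.20), treated controls (8.57), treated SIVE (11.15) and untreated SIVE (11.29). IFITM1 followed the same order with 8.32, 8.84, 11.55 and 11.56. For APOBEC3H treated SIVE, at 6.94, stood above untreated SIVE, at 6.80, with untreated controls at 6.12 and treated controls at 6.24. For all 3 genes the neighbours within controls and within SIVE did not differ beyond their spread.

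Among the 9 SIVE animals BST2 and IFITM1 varied together. Their r was 0.917 (exact permutation p = 0.000201, adjusted over 9 relations 0.00181) and their rho 0.900 (adjusted exact p = 0.0183). Without SIVE 1 and SIVE 8, the animals farthest from the median of BST2, r was 0.871. SIVE 7 and SIVE 2 were the highest for both genes, and SIVE 1 and SIVE 8 the lowest.

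APOBEC3H followed less closely. Its r was 0.710 with IFITM1 (rho 0.817) and 0.695 with BST2 (rho 0.667), and after adjustment only the rank relation with IFITM1 passed (exact permutation p = 0.0485 for rho with IFITM1, 0.116 for each r and 0.177 for rho with BST2). Whether the relations differ from one another was not tested. Relations within the anti-CD8 labels, with 4 and 5 animals, were not computed.

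The same animals carry a virus signal. The array holds 9 probe sets named after 1 nucleotide accession and a coding sequence number, for which the sources used here name no organism. They are taken as simian immunodeficiency virus sequences, an assumption from general knowledge. Their mean signal was 5.23 to 7.30 in SIVE animals and 3.90 to 4.27 in controls. The 9 probe sets did not rise alike. Their SIVE minus control differences ran from 0.06, which did not pass (limma adjusted p = 0.67), to 6.20 (limma adjusted p = 2.44e-09). The mean thus includes probe sets with little or no rise. This mean was highest in SIVE 7 (7.30), SIVE 9 (7.11) and SIVE 8 (6.63). SIVE 7 was also highest for BST2 and IFITM1, but SIVE 8 was the lowest for IFITM1 and SIVE 9 the lowest for APOBEC3H.

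Over the 9 SIVE animals r with the mean virus signal was 0.237 for BST2, 0.0678 for IFITM1 and -0.244 for APOBEC3H, and none passed (adjusted exact permutation p = 0.597, 0.858 and 0.597). With 9 animals these values do not show that a relation is absent. The relations were also computed with the brightest virus probe set alone and with the mean of each gene's probe sets. There r was 0.08 to 0.22 for BST2, -0.10 to 0.12 for IFITM1 and -0.42 to -0.24 for APOBEC3H, and none passed. Without SIVE 7 and SIVE 6, farthest from the median virus signal, r was -0.000808 for BST2, -0.227 for IFITM1 and -0.466 for APOBEC3H. The 3′ excess also did not pass against any member, with r of 0.394 for BST2, 0.390 for IFITM1 and 0.573 for APOBEC3H (adjusted exact permutation p = 0.454, 0.454 and 0.227). For APOBEC3H r turned to -0.263 without SIVE 2 and SIVE 3.

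**Figure D3:**
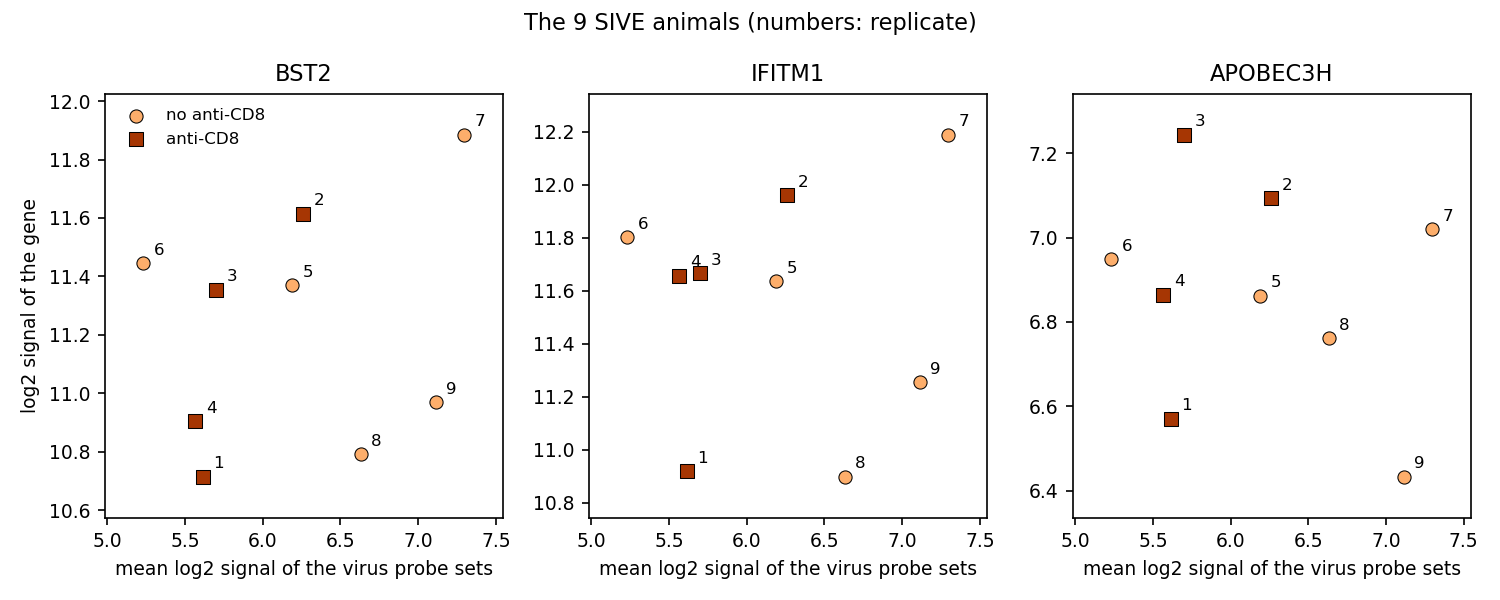
Log2 signal of BST2, IFITM1 and APOBEC3H (vertical axes, 1 panel each) against the mean log2 signal of the 9 virus probe sets (horizontal axis) in the 9 SIVE animals, numbered by replicate, with squares for anti-CD8. SIVE 7 is at the upper right for BST2 and IFITM1, while SIVE 8 and SIVE 9, next in virus signal, are among the lower animals, and r is 0.237, 0.0678 and -0.244.

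The members were set beside a list of 29 other genes known to restrict retroviruses, of which 14 had a probe set with a single symbol. At the brightest probe set 6 of the 14 rose, 1 fell and 7 did not pass, with a median difference of 0.32 against -0.02 over all named genes. Those that rose most were LGALS3BP, a secreted glycoprotein that lowers the infectivity of virions, and MX2, a GTPase that blocks nuclear import of the viral DNA. LGALS3BP went from 6.68 ± 0.33 (SD, n = 9) to 9.85 ± 0.60 (SD, n = 9), a rise of 3.16 ± 0.21 (SE; limma adjusted p = 4.08e-09). MX2 rose by 3.15 ± 0.19 (SE; limma adjusted p = 7.54e-10), a size close to that of BST2 and IFITM1.

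The exonuclease ISG20 rose by 1.78 and CH25H, which makes an antiviral oxysterol, by 1.56. TRIM5, which binds incoming capsids, rose by 0.89 at its brightest probe set. The 3 other TRIM5 probe sets differed by 0.01, which did not pass, to 1.46. The RNA helicase MOV10 rose by 0.89 at its brightest probe set and by 0.24 at the other. SERINC5, a membrane protein that lowers virion infectivity, stood at 0.29 and the ubiquitin ligase MARCHF8 at 0.18, and neither passed. TRIM22 fell by 0.79 at its brightest probe set but rose by 2.08 at the other. GBP2, at 0.07 and not past the threshold at its brightest probe set, rose by 3.09 and 2.31 at the others. Counting any probe set, 8 of the 14 genes rose, a count that favours genes with several probe sets. Over the whole array 3.63% of probe sets rose. The share over all genes, by brightest or by any probe set, was not counted, here or for the lists below.

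**Figure D4:**
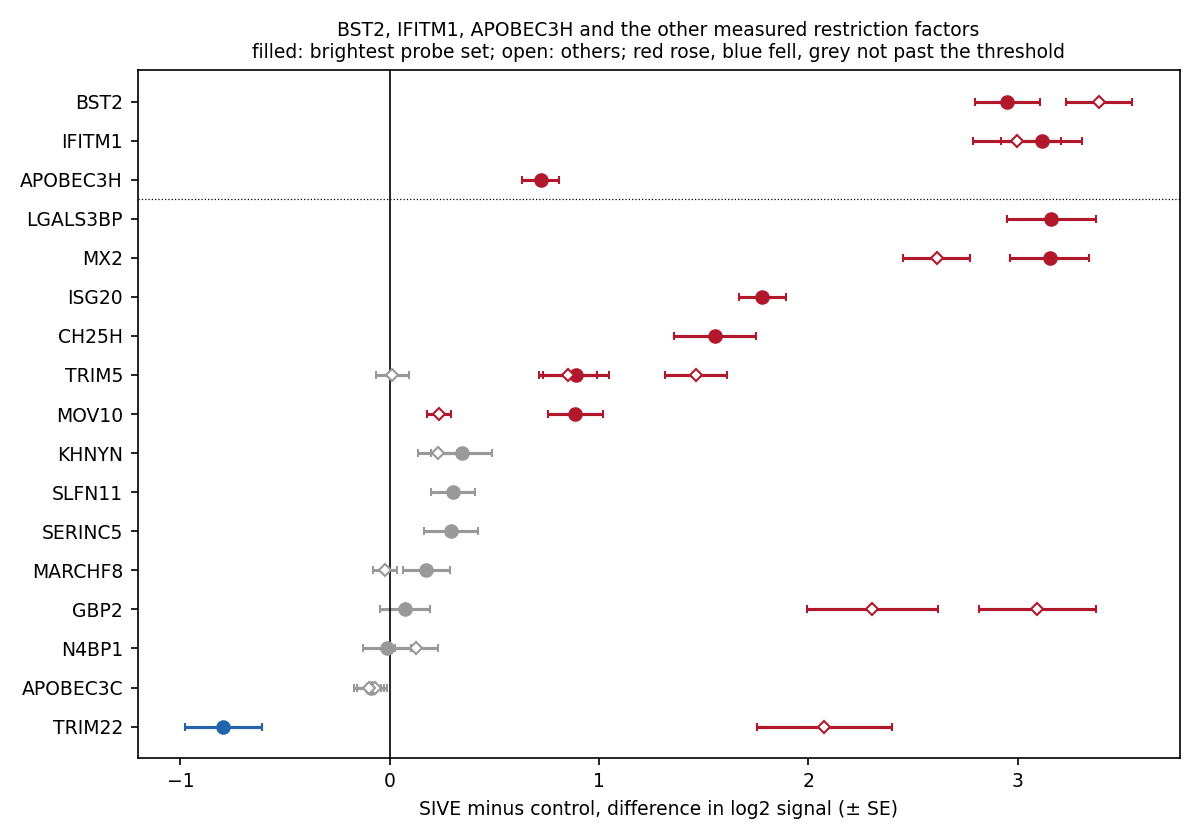
SIVE minus control difference in log2 signal with its SE (horizontal axis) for BST2, IFITM1, APOBEC3H and the 14 other measured restriction factors (vertical axis), with filled points for the brightest probe set and open ones for the others. BST2 and IFITM1 lie near LGALS3BP and MX2 at about 3, APOBEC3H lies at 0.72, and the probe sets of TRIM5, MOV10, TRIM22 and GBP2 lie far apart within each gene.

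APOBEC3H belongs to the APOBEC and AID family of deaminases. Of 10 other family genes 4 had a probe set of their own, of which 0 rose in limma (also 0 at an unadjusted p under 0.05) and 1 fell. APOBEC2, a muscle protein without known antiviral activity, fell by 0.36 (limma adjusted p = 0.00944) from a dim signal of 4.16 to 3.79. APOBEC3C stood at -0.09, APOBEC1, an RNA-editing deaminase, at -0.05 and APOBEC4 at 0.00, and none of these passed (limma adjusted p = 0.519, 0.601 and 0.997). APOBEC1, APOBEC2 and APOBEC4 had mean signals below the median probe set level. The 2 probe sets that several APOBEC3 symbols share differed by 0.07 and -0.18 (limma adjusted p = 0.548 and 0.294). Both carry the symbol of APOBEC3F, which was thus read together with its relatives and not alone. APOBEC3G, with APOBEC3F the best known deaminase against these viruses, was not analysed here.

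Of the IFITM family, IFITM10 was the other gene measured. It was at 5.35 ± 0.25 (SD, n = 9) in SIVE and 5.69 ± 0.31 (SD, n = 9) in controls, and its difference of -0.34 did not pass (limma adjusted p = 0.131). IFITM2, IFITM3 and IFITM5 were not analysed here. In the RefSeq order of genes (assembly T2T-MMU8v2.0, used for order and names) the gene next to IFITM1 on one side is LOC697829. It was looked up because of its place, with earlier results known, and its brightest probe set rose by 3.01 (limma adjusted p = 4.64e-09). That probe set also carries a suffix for probes that match several transcripts. Next to APOBEC3H, CBX7 stood at 0.03 and PDGFB at 0.13, and neither passed (limma adjusted p = 0.856 and 0.501). On its other side APOBEC3H adjoins APOBEC3G and APOBEC3F.

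Interferon signalling genes were listed as the pathway upstream of these genes. Of 17, 10 were measured, of which 4 rose and none fell in limma, with a median of 0.37. IRF1, a transcription factor made in response to interferon, rose by 2.14, and IRF7, which drives interferon transcription, by 1.61, although its other probe set stood at -0.10. The receptor subunit IFNAR2 rose by 1.21, with its other probe set at -0.04, and STAT2, which carries the receptor's signal to the nucleus, by 0.95. The feedback inhibitor SOCS1, at -0.14, and IRF3, at 0.05, did not pass. The receptor kinase JAK2 did not pass at its brightest probe set, at 0.68, but rose by 0.64 at 1 of its 2 others (limma adjusted p = 0.0189), so 5 of the 10 genes rose by any probe set. IFNB1 and IFNG were below the median probe set level. Of 5 entry receptors of these viruses 4 were measured and 0 passed in limma (0 also at an unadjusted p under 0.05), with CD4 at 0.05, CXCR4 at 0.15 and GPR15 at -0.09.

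The genes with the signal most like each member over the 18 animals were ranked by Pearson's r among 9341 named genes above the median probe set level. Since SIVE and control animals form separate clusters, this r mostly ranks genes by how cleanly they separate the groups, and r over the 9 SIVE animals is given beside it. For BST2 the leading 5 were DTX3L (0.993, and 0.941 within SIVE), NLRC5 (0.992 and 0.901), ISG20 (0.991 and 0.832), IFITM1 (0.990 and 0.917) and UBE2L6 (0.989 and 0.843). DTX3L is a ubiquitin ligase, NLRC5 a regulator of MHC class I genes and UBE2L6 the conjugating enzyme of ISG15.

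IFITM1 had BST2, DTX3L (0.990, and 0.928 within SIVE), AMBP (0.989 and 0.921), IFI27 (0.989 and 0.761) and NLRC5 (0.989 and 0.920). AMBP, a plasma protein precursor, had another probe set that stood at -0.09. APOBEC3H had other genes beside it: DHX8 (0.977 and 0.877), IRF7 (0.970 and 0.889), the DNA sensing adaptor STING1 (0.964 and 0.938), the leukocyte adhesion protein FERMT3 (0.956 and 0.827) and LGALS3BP (0.955 and 0.829). The 3 other probe sets of DHX8, an RNA helicase of splicing, differed by -0.06 to 1.25, so its brightest probe set may not speak for the gene.

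The lists of cell type markers were compared between the groups in the same way. Of 11 measured macrophage and microglia markers 5 rose and none fell in limma, among them LYZ at 2.71, VSIG4 at 2.39, PTPRC at 1.52 and CD14 at 1.18. Another PTPRC probe set stood at 0.04 and did not pass, while its remaining ones rose by 1.30 and 1.44. ITGAM stood at -0.35, CSF1R at 0.45, P2RY12 at -0.44, CX3CR1 at -0.15 and TMEM119 at -0.10, and none of them passed. CD68 stood at -0.05 and did not pass at its brightest probe set, but rose by 1.14 at the other (limma adjusted p = 9.58e-05), so 6 of the 11 genes rose by any probe set. The mean signal of the list was 7.32 to 8.00 in SIVE animals and 6.74 to 7.34 in controls, so the groups overlapped slightly, and no measured marker had a mean below the median probe set level. The part of these cells in the rise of BST2, IFITM1 and APOBEC3H was not tested.

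Among 6 endothelial and pericyte markers 3 rose and none fell in limma, VWF at 0.98, PECAM1 at 0.83 and CDH5 at 0.52. The other probe sets of VWF, at -0.02, and CDH5, at 0.11, did not pass. CLDN5 stood at 0.11, TEK at 0.27 and FLT1, below the median level, at -0.03, and none of them passed. Their mean was 6.99 to 7.90 in SIVE and 6.76 to 7.52 in controls. Of 2 plasmacytoid dendritic cell markers GZMB, which cytotoxic lymphocytes also make, rose by 2.36, and TCF4, also made by neurons, stood at 0.09. T cell markers had 0 of 4 past the threshold in limma (1 lower at an unadjusted p under 0.05), with a list mean of 4.95 to 5.26 in SIVE and 5.02 to 5.56 in controls, and CD5, TRAT1 and CD8B below the median level. CD8A stood at -0.12 and CD8B at -0.10.

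Of the resident cells, 3 neuron markers were measured. TUBB3 fell by 0.51 at its brightest probe set, but its other probe sets, at -0.49 to -0.14, did not pass. SYT1, at -0.06, and STMN2, at -0.22, did not pass either. Of 4 astrocyte markers GFAP rose by 0.36, with its other probe set at -0.01, and SLC1A2 fell by 0.52, while SLC1A3, at 0.12, and ALDH1L1, at -0.20, did not pass. Of 2 oligodendrocyte markers MBP fell by 0.32 and CNP, at 0.06, did not pass. The list means were 10.93 to 11.40 in SIVE and 11.09 to 11.75 in controls for neurons, 11.04 to 11.40 and 11.00 to 11.56 for astrocytes, and 12.32 to 12.63 and 12.41 to 12.62 for oligodendrocytes. Their part in the rise of the members was not tested either.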

How the data were processed

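Hippocampal total RNA of 18 macaques was hybridized to 36 arrays. The range of the deposited values (highest 14.49) is that of a log2 scale. RMA, a method of background correction, between-array normalization and probe summary, made them, per the submitters' processing notes, which give no version. Array medians were 5.59 to 5.75. Precision is limited by the number of animals, as arrays hold no counts. Normalization assumes similar distributions in all arrays, and background sets a floor, so differences of dim probe sets can be understated.

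The 2 arrays of an animal were averaged. After leaving out 99 Affymetrix control and 59 reporter probe sets, 52707 were tested two-sided with lmFit and eBayes of limma 3.58.1 (R 4.3.3). P-values were adjusted by Benjamini-Hochberg over all of them, with a threshold of 0.05. SIVE against control used 2 group means. The other comparisons used 4 means, by group and anti-CD8 label, with a shared spread. Relations and the differences between members used exact permutation tests (Python 3.11.15, scipy 1.17.1). Single animals far from their group were sought with Dixon's ratio of gap to range. Of all probe sets 24969 have 1 symbol, 361 several and 27535 none. A gene is represented by its brightest probe set of 1 symbol. The 3′ excess is the mean 3′ minus 5′ signal of GAPDH, ACTB and EEF1A1.

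Named genes are the members, all measured APOBEC and IFITM relatives, and from each other list up to 4 genes past the threshold with the largest difference and up to 3 others with the highest mean, plus the 5 genes most like each member. TRIM5, MOV10, TRIM22, GBP2, TRAT1, IFNB1, IFNG, P2RY12, CX3CR1, TMEM119 and the neighbours of the members stand outside it and were named with their values seen. The members and lists were chosen with earlier results of these data known. Same-numbered SIVE and control animals deviated together at r of -0.488 to 0.089, so replicate numbers do not pair them and no block was used. The fitting step was tested on simulated data. Probe sequences and genes without a probe set of a single symbol were not used here.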

Additional observations from a re-analysis of the deposited data

Results flagged for a closer look

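Among 25 groupings of a member probe set, BST2 in the controls had an animal far from the others. Control 8, a treated control, was at 9.00, and the gap to the next control, 8.34, made up 0.694 of the group's range, above the critical value of 0.493 for 9 samples. Chance puts the gap above the critical value in about 1 of 20 groups. Control 8 was also the highest control for the other 4 member probe sets, but was not flagged at them. There its gap made up 0.128 to 0.371 of the range, with 0.257 at the dimmer BST2 probe set. This animal had the largest 3′ excess, 1.46. Any link of its member signals to that excess was not tested.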

How the results depend on the processing

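BST2, IFITM1 and APOBEC3H kept their direction and stayed past the threshold, at all 5 probe sets, in SIVE against control and in the untreated animals under every alternative run and every omission of 1 animal. In SIVE against control these omissions gave 2.87 to 3.04 for BST2, 3.02 to 3.22 for IFITM1 and 0.67 to 0.77 for APOBEC3H. Among treated animals the fit with the replicate block, numbers that do not pair the animals, gave 1.83 for BST2, 1.48 for IFITM1 and 0.36 for APOBEC3H, and the fit of the 6 treated animals alone 2.58, 2.71 and 0.70, none past the threshold. The dimmer probe sets there missed it with the block too (2.18 for BST2), and that of IFITM1 also with weights (2.74) and in the 6 animals (2.68). APOBEC3H there also missed it with the first array of each animal (0.68), quantile normalization (0.68), age as a covariate (0.76), a trended robust prior (0.70) and array weights (0.80). Without the 3 animals of high 3′ excess, which leaves Control 9 as the only treated control, its difference was 0.52. Omissions of 1 animal gave 0.60 to 0.82. No call of a member in another comparison changed with the block. Counts over the whole array moved more. In SIVE against control 2595 probe sets passed, against 1368 with the replicate block, 4824 with the 3′ excess as a covariate, 5766 with array weights and 5294 with the anti-CD8 label as a covariate. Without anti-CD8 1652 passed, against 531 with the replicate block, 3197 with the animal as a random block over single arrays, 2670 with the 3′ excess, 4428 with weights and 2512 without the 3 animals. With anti-CD8 555 passed, against 12 with the replicate block, 1043 with the random block, 979 with the second arrays, 187 with age, 950 with the 3′ excess, 135 with weights, 205 without the 3 animals, 110 in the 6 treated animals and 355 (without SIVE 4) to 1661 (without Control 5) over omissions. For the interaction the replicate block gave 2. For anti-CD8 within SIVE, where 1 passed, the replicate block, the second arrays and leaving out the 3 animals gave 0, the random block 1930, weights 3546 and omissions 1 to 4 (SIVE 2, SIVE 4 and SIVE 7 with 2, SIVE 6 with 4). Within controls, where 0 passed, the replicate block gave 4, the random block 9, the second arrays 284, quantile normalization 1, leaving out dim probe sets 1, and omissions 0 to 5963 (Control 9), with 769 without Control 5, 3 without SIVE 2 and 1 without SIVE 4. The cause of these shifts was not tested.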
